A study of Gallus gallus with 8 samples.

Results

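The cytosolic ribosomal protein genes of the chick embryo were examined across 4 regions of the heart and 4 regions of the lateral plate mesoderm. The members were chosen by name, as every gene called RPL or RPS plus a number, the matching database entry names (RL7 or RS12, for example), the stalk genes RPLP0, RPLP1 and RPLP2, and RPSA, leaving out the kinases of the RPS6K family. This gave 52 of the 17778 genes listed. They are 29 genes of the large subunit, 3 of its stalk and 20 of the small subunit. Another 20 genes that the same naming rule picks from a chicken RefSeq gene table, RPL3, RPL4 and RPS3 among them, were found under none of these names and are not analysed here.

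Ribosomal proteins assemble with ribosomal RNA into the small subunit, which reads the messenger, and the large subunit, which joins amino acids and releases the chain through an exit tunnel. Most of these proteins occur in equal number in a ribosome, and their messengers share a start motif, the TOP motif, through which the mTOR pathway sets their translation as a group. They are among the most abundant messengers of growing embryonic cells, and in humans loss of a copy of several of them causes Diamond-Blackfan anaemia, a failure of red cell production that can come with heart malformations.

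Each library was made from polyadenylated RNA of pooled, dissected chick embryos, with no transgene or treatment named, and sequenced in paired reads of 36 bases. The heart libraries were the developing sinoatrial node (the pacemaker region, called the node here), the left atrium, the ventricular apex and, at Hamburger-Hamilton (HH) stages 17 to 18, the atrioventricular junction. For the node, the atrium and the ventricle the sources used here give no stage. The mesoderm libraries were all of HH stage 8 and held the pacemaker progenitor field and, from the lateral plate, its anterior, its posterior and its left side. With 1 library per region, differences are given without replicates and without p-values. They are read against those of all expressed genes, and region, stage, pool and library cannot be told apart.

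Depth ran from 10258697 counts in the ventricle to 17189803 in the atrium. Every member but RPL3L held at least 4355 counts in each library. The heart label was borne out by the markers of heart muscle, of which 13 of 13 found were higher in all 4 heart libraries. Their summed level was 31102 to 37282 CPM (counts scaled to a fixed library total) there and 728 to 1279 CPM in the mesoderm. Blood came with the heart as well: the 8 erythroid genes found, mostly globins, summed to 17639.7 to 47058 CPM in the heart libraries and 57.5 to 82.5 CPM in the mesoderm libraries. In bulk tissue, fewer cells of a type and less RNA per cell cannot be told apart.

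The ribosomal protein genes together took up between 9.06% and 12.2% of all counts. Their share was 9.58% in the node, 9.48% in the atrium, 10.4% in the ventricle and 9.06% in the junction. It was 10.9% in the pacemaker field, 11.3% in the anterior, 9.85% on the left and 12.2% in the posterior mesoderm. The exact 95% intervals, which cover counting error only, ran from 12.21% to 12.25% in the posterior library and were about as narrow in the others. The posterior mesoderm thus had the highest share and the junction the lowest, and the ventricle stood above the left mesoderm, so the classes overlapped.

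Part of every library was filled by other abundant transcripts, and they were not equal in the 8. Genes of the mitochondrial genome took 11.4% to 19.4% of counts in the heart and 10.5% to 15.3% in the mesoderm, and globins took up to 3.99% in the heart. With both removed from the total, the ribosomal protein share was 11.1% in the node, 11.8% in the atrium, 12.1% in the ventricle and 11.5% in the junction. On the same basis it was 12.2% in the pacemaker field, 13.4% in the anterior, 11.3% on the left and 13.8% in the posterior mesoderm. The node and the left mesoderm were the lowest of their classes on this basis.

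Levels below are CPM after trimmed-mean (TMM) scaling, which sets the bulk of genes equal between libraries, unless a total or a share is named. On this scale the members summed to 96647 CPM in the node, 111878 in the atrium, 115804 in the ventricle and 106426 in the junction. They summed to 95322 CPM in the pacemaker field, 107401 in the anterior, 83116 on the left and 112880.3 in the posterior mesoderm. The pacemaker field and the node, the earlier and the later pacemaker tissue, stood close together on this scale and below the other libraries except the left mesoderm, while as a share of all counts the pacemaker field was the higher of both.

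**Figure D1:**
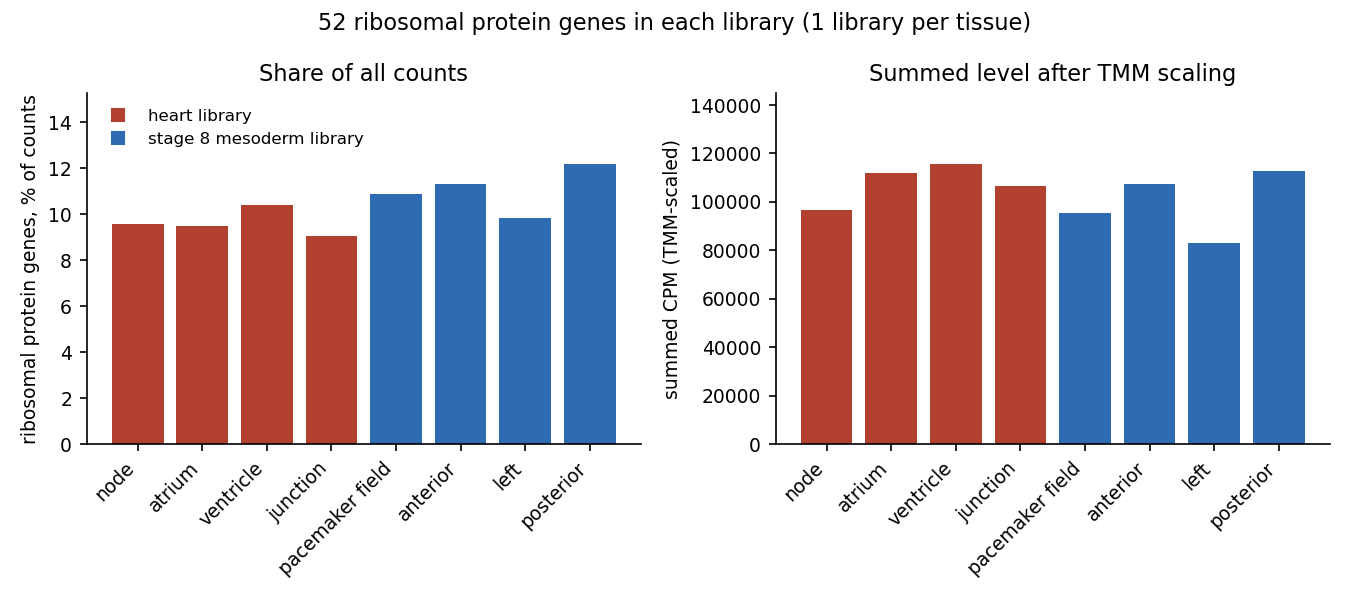
Bars give the summed ribosomal protein genes in each of the 8 libraries, as percent of all counts on the left and as summed CPM after TMM scaling on the right. Heart libraries (red) run from 9.06% to 10.4% of counts and mesoderm libraries (blue) from 9.85% to 12.2%, while on the TMM scale the left mesoderm, at 83116 CPM, is the lowest.

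On the TMM scale heart and mesoderm carried nearly the same levels of these genes. Of the 52 members, 51 reached 5 CPM in at least 1 library and count as expressed. A gene is said to lie apart when all 4 heart libraries are above, or all 4 below, all 4 mesoderm libraries. By this measure 5 members were higher in the heart (RPS16, the RPS27L row, RPS28, RPL29 and RPS10) and 0 were lower, where 25.6% of the 10454 expressed genes were higher and 25.6% lower. The remaining 46 members had overlapping classes, or 9.80% lying apart against 51.3% of all expressed genes.

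The ratio given for a gene is log2 of the heart mean over the mesoderm mean, each as CPM + 1. Its median over the 51 members was 0.12, beside 0.02 over all expressed genes, and it ran from -0.27 for RPS20 to 0.67 for RPS16. There were 36 members above 0 and 15 below. The median size of the ratio, regardless of sign, was 0.16 for members and 0.48 for all expressed genes, and 0 members reached a size of 1 where 23.5% of all expressed genes did. Scaling to total counts, as the authors deposited the values, moved the median of all expressed genes by -0.31 to -0.29, and the sign of the members' median turned to -0.19. Under that scaling 1 member was higher (background 15.8%) and 17 were lower (background 39.7%). The members stood 0.10 above the median of all expressed genes under either scaling. A change of scaling moves all genes of a library alike, so this difference could hardly change. Heart muscle, blood and mitochondrial transcripts differed between the classes as given above, and their part in these ratios was not tested. A left-out library changes the counts too: without the node 8 members lay apart as higher, without the posterior mesoderm 9 did, and without the left mesoderm 5 lay apart as lower. With fewer libraries any gene meets the criterion more easily. The shares of all expressed genes were not computed for these settings, so these counts are not read as a change of the members.

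**Figure D2:**
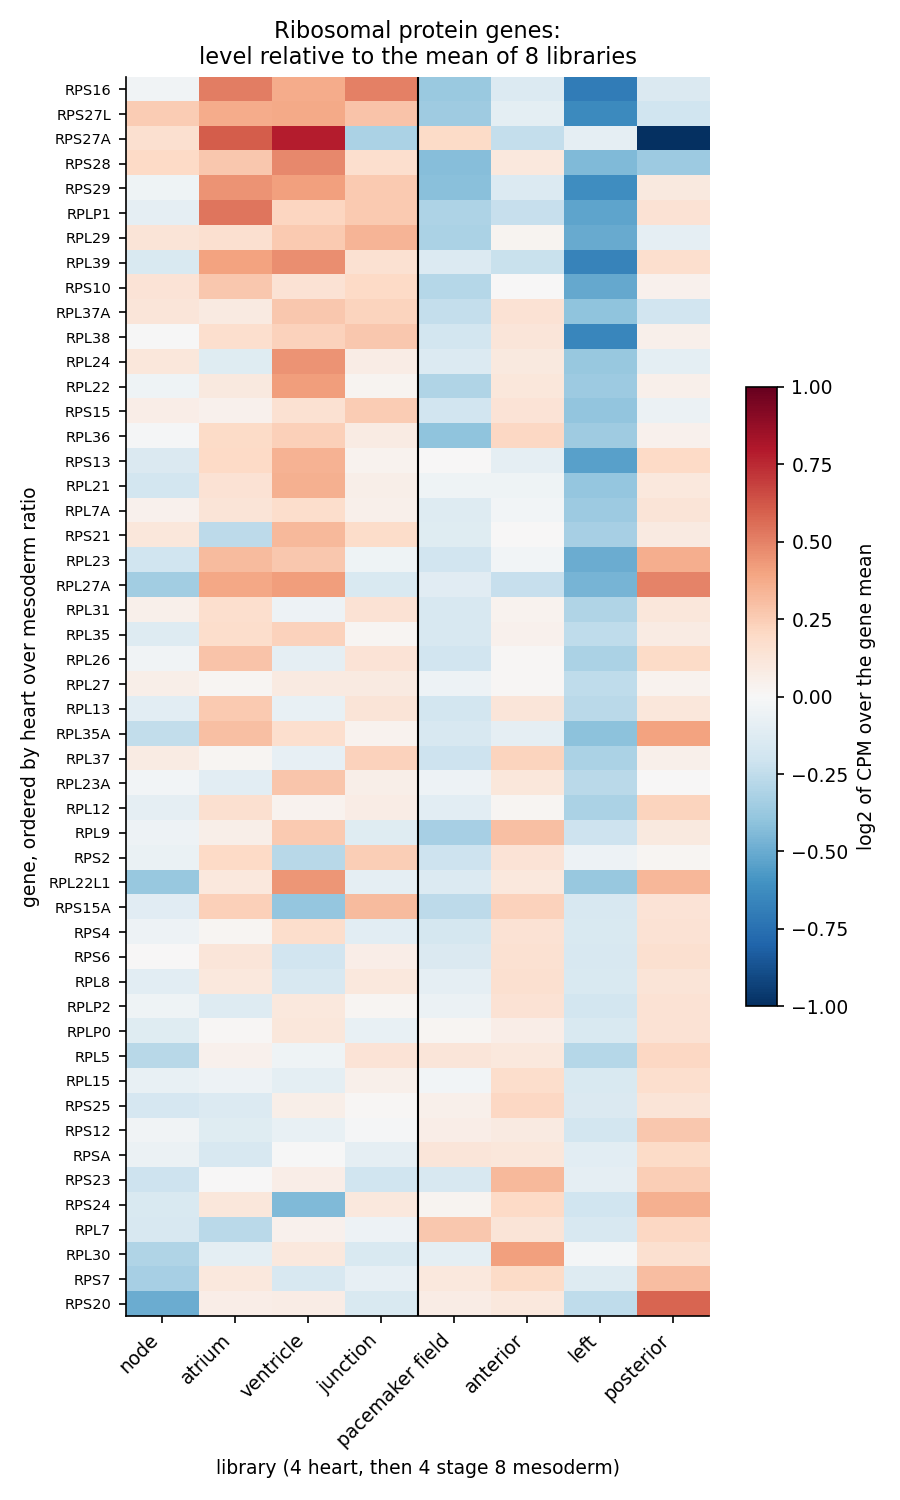
Each row is a gene, ordered by its heart over mesoderm ratio, each column a library, and the colour is log2 of the gene's TMM-scaled CPM less its mean over the 8 libraries, with colours ending at 1 and -1. The left mesoderm column is blue for most genes, and RPS27A, with 3253 CPM in the ventricle and 886 CPM in the posterior mesoderm, is the most uneven row.

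In the small subunit, RPS16 had the highest ratio. Its protein reaches with its tail to the transfer RNA at the decoding site. RPS16 (chromosome 1, 41630323 to 41633386, plus strand) held 1481 CPM in node, 2158 in atrium, 1966 in ventricle and 2146 in junction. In the mesoderm it stood at 1174 CPM in the pacemaker field, 1380.0 in the anterior, 936 on the left and 1369 in the posterior library. The node was the lowest heart library and still above all 4 mesoderm libraries, and the class means differed 1.60-fold.

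RPS28, a protein at the site where the messenger leaves the small subunit, differed in the same direction. RPS28 (chromosome 28, 869366 to 870046, minus strand) held 1725 CPM in node, 1809 in atrium, 2089.6 in ventricle and 1687 in junction. Its mesoderm levels were 1118 CPM in pacemaker field, 1613 in anterior, 1105 in left and 1165 in posterior mesoderm. The anterior mesoderm came close to the junction, and the class means differed 1.46-fold. A listed gene on the opposite strand within RPS28 held 99.8% to 99.9% of the count of RPS28 in every library, so the counting there did not use strand and the reads of the 2 cannot be separated.

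RPS10 ranged from 1425 to 1556 CPM in the heart libraries and from 908 to 1331 CPM in the mesoderm libraries. RPS29, a small zinc-binding protein, was at 1771 to 2480.2 CPM in the heart and 1187 to 1946 CPM in the mesoderm, and the posterior mesoderm lay above the node. The row named RPS27L ranged from 1193 to 1303 CPM in the heart and from 642 to 932 CPM in the mesoderm, and it is the member that lay apart under total counts as well. That row (chromosome 13, 15510996 to 15511283, 288 bases, plus strand) shares 0 of its neighbouring genes with RPS27L of the reference, lies within another listed gene, O42390, on the opposite strand, and its name is uncertain.

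At the other end stood RPS20, a protein of the head of the small subunit, with the lowest ratio of all members. RPS20 (chromosome 2, 114876692 to 114883844, minus strand) held 2304 CPM in node, 3403 in atrium, 3407 in ventricle and 2918 in junction. Its mesoderm levels were 3410.0 CPM in pacemaker field, 3493 in anterior, 2714 in left and 4855 in posterior mesoderm. The posterior library was far above the others, and the left library lay within the range of the heart.

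The next lowest ratios in the small subunit were -0.24 for RPS7, -0.19 for RPS24 and -0.17 for RPS23, a protein of the decoding centre. RPS7 ranged from 713 to 968 CPM in the heart and from 821 to 1112 CPM in the mesoderm, and RPS24 from 631 to 928 and from 749 to 1101 CPM. RPSA, listed under the entry name RSSA and also known as a laminin receptor, ranged from 2659 to 2961 CPM in the heart and from 2759 to 3383 CPM in the mesoderm, a ratio of -0.16. RPS12 and RPS25 had ratios of -0.13 and -0.12. The classes overlapped for all of these on the TMM scale.

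Apart from RPS27A, taken up separately, the remaining small subunit genes had overlapping classes and ratios from -0.00 to 0.25. RPS6, the protein phosphorylated by the S6 kinases, had class means of 1915 CPM in the heart and 1919.9 CPM in the mesoderm. RPS2, RPS4 and RPS15A had ratios of 0.06, 0.02 and 0.04, and RPS21, RPS13 and RPS15 had ratios of 0.18, 0.20 and 0.25. A gene listed on the opposite strand within RPS15 held 63.6% to 75.2% of its count. Over the 20 small subunit members the median ratio was 0.05, with 4 lying apart as higher.

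Of the 28 expressed genes of the large subunit, RPL29, a small protein that mice can live without, lay apart. RPL29 (chromosome 12, 531781 to 533742, plus strand) held 1539 CPM in node, 1575 in atrium, 1686 in ventricle and 1779.5 in junction. Its mesoderm levels were 1135 CPM in pacemaker field, 1438 in anterior, 993 in left and 1324 in posterior mesoderm. The anterior mesoderm was the nearest to the heart, and the class means differed 1.35-fold.

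Proteins around the exit tunnel had ratios of 0.42 for RPL39, which lines the tunnel, 0.15 for RPL35, 0.15 for RPL31, 0.14 for RPL26 and 0.10 for RPL23A. RPL39 ranged from 2404 to 3689 CPM in the heart and from 1683 to 3000.3 CPM in the mesoderm. Of the genes with known developmental phenotypes in mice, RPL38, mutated in the Tail-short mouse, had a ratio of 0.30 and RPL24, mutated in the Belly spot and tail mouse, a ratio of 0.26. RPL5, which carries a small ribosomal RNA into the subunit and binds MDM2, had class means of 1725 and 1819.8 CPM. RPL8, at the centre where peptide bonds form, had class means of 1578 and 1608 CPM.

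The lowest ratios in the large subunit were -0.23 for RPL30 and -0.22 for RPL7. RPL30 ranged from 3083 to 4085 CPM in the heart and from 3539 to 5042 CPM in the mesoderm. RPL7 ranged from 2089 to 2606 CPM in the heart and from 2256 to 3035 CPM in the mesoderm, with the pacemaker field highest. RPL15 had a ratio of -0.09. Among the other large subunit genes, those reported here (RPL9, RPL12, RPL13, RPL21, RPL22, RPL22L1, RPL23, RPL27, RPL27A, RPL35A, RPL36, RPL37, RPL37A and RPL7A) had ratios from 0.05 to 0.33. Over the 28 expressed large subunit members the median was 0.13.

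The stalk of the large subunit calls in the elongation factors. Its base, RPLP0, was among the steadiest members, with 2617 to 3079.7 CPM in the heart and 2562 to 3151 CPM in the mesoderm, the smallest spread of all 51. RPLP2 likewise ranged from 1639.8 to 1928 CPM in the heart and from 1579.7 to 1987 CPM in the mesoderm. Their partner RPLP1 was uneven, with 2571 CPM in the node, 3959.8 in the atrium, 3179 in the ventricle and 3274 in the junction. In the mesoderm RPLP1 stood at 2207 CPM in the pacemaker field, 2324 in the anterior, 1894 on the left and 3024 in the posterior library. The classes overlapped through the posterior mesoderm, which lay above the node, and the class means differed 1.37-fold.

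A member can also be measured as its share of the ribosomal protein pool, its count as percent of the summed counts of the 52 members in the same library. This share needs no scaling between libraries, but the shares add up to the whole, so a rise of some members lowers the rest. On this measure, chosen after the values were seen, 7 members, or 13.7%, were higher in all heart libraries. Scaled by the pool, 18.9% of all expressed genes were. The members were RPS16, the RPS27L row, RPS28, RPS29, RPL29, RPS10 and RPL7A. RPL7A lay apart by little, at 1.54% to 1.69% in the heart and 1.44% to 1.53% in the mesoderm. Another 10, or 19.6%, were lower in all heart libraries, where 26.9% of all expressed genes were. These were RPS20, RPS7, RPL30, RPL7, RPS24, RPS23, RPSA, RPS25, RPL15 and RPLP0. In both directions the share of members was below that of all expressed genes. Without the anterior mesoderm 12 members were higher, but with fewer libraries the criterion is met more easily, and no share of all genes was computed for that setting.

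From lowest to highest library, the pool share differed 1.79-fold for RPS16, 1.80-fold for RPS20, 3.58-fold for RPS27A and 1.08-fold for RPL35. RPS16 made up 1.53% of the pool in the node, 1.93% in the atrium, 1.70% in the ventricle and 2.02% in the junction. In the mesoderm it made up 1.23% in the pacemaker field, 1.28% in the anterior, 1.13% on the left and 1.21% in the posterior library. The 4 mesoderm values were close together and the 4 heart values were all above them. RPS20 ran the other way, from 2.38% to 3.04% in the heart and from 3.25% to 4.30% in the mesoderm. RPL35, the steadiest member, stayed between 2.72% and 2.94% in all 8 libraries.

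The standard deviation over the 8 libraries of the log2 pool share had a median of 0.16 over members. It was lowest for RPL35 (0.05), RPL12 (0.07), RPL7A (0.07) and RPL27 (0.09) among the genes reported here. It was highest for RPS27A (0.60), followed at a distance by RPS16 (0.32). On the TMM scale the highest library was a median of 1.56 times the lowest for members, beside 2.02 times for all expressed genes and 1.86 times for the 421 other genes at a mean of 300 CPM or more. A span of at least 2-fold was seen for 13.7% of members and 51.1% of all expressed genes.

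**Figure D3:**
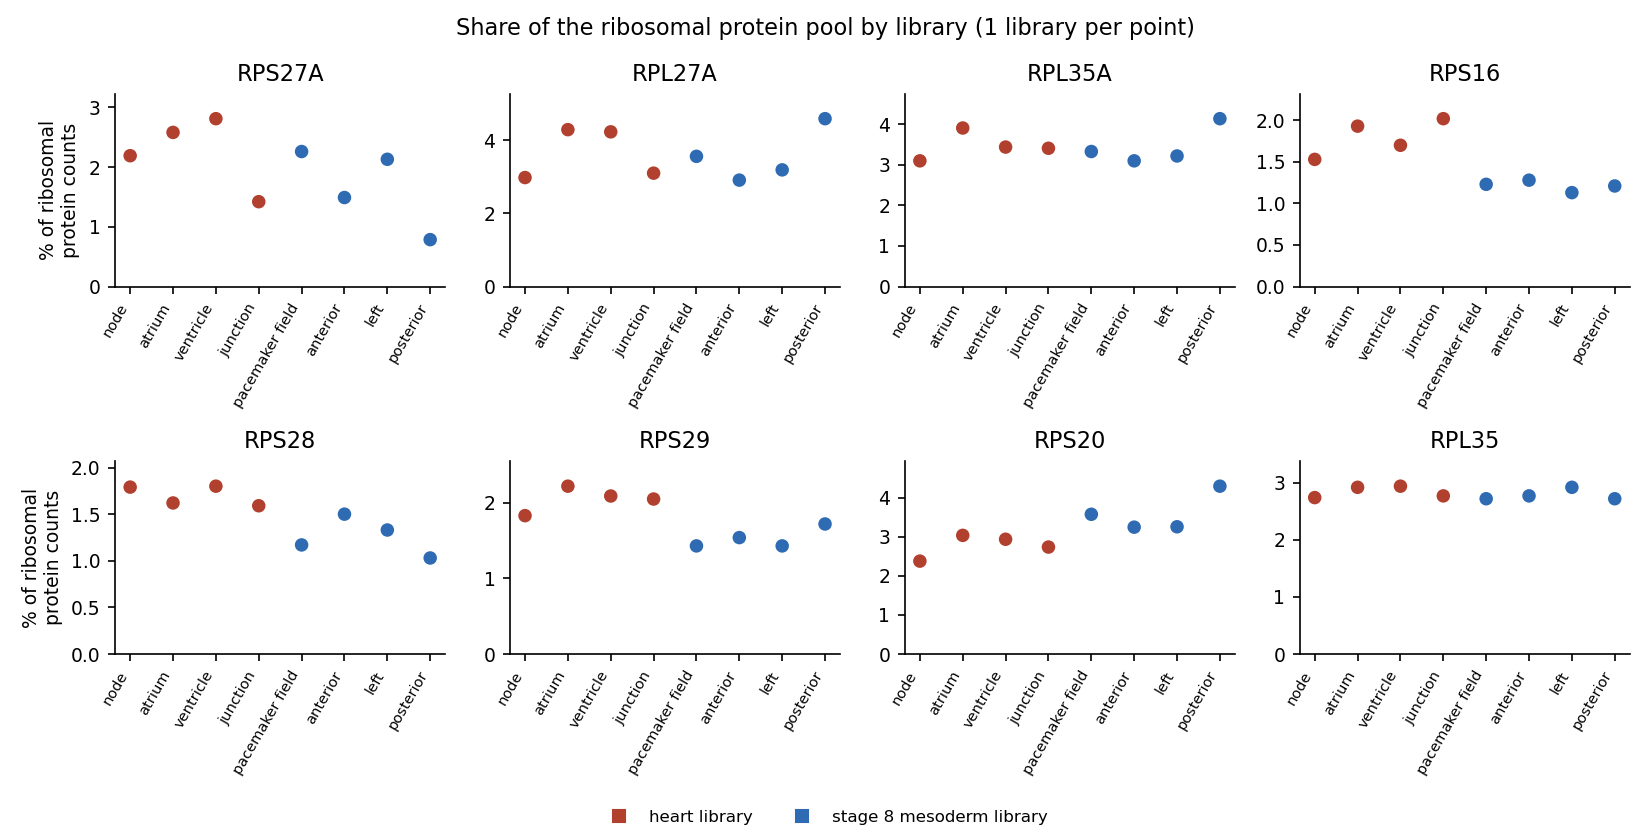
Each point is the share of a gene in the counts of all 52 ribosomal protein genes in 1 library, in percent, for 8 genes, with heart libraries in red and mesoderm libraries in blue and axes starting at 0. RPS16, RPS28 and RPS29 are higher and RPS20 lower in all 4 heart libraries, RPL35 stays between 2.72% and 2.94%, and RPS27A falls to 0.785% in the posterior mesoderm.

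Within the heart, the node tended to carry the lowest levels on the TMM scale, although as a share of all counts the atrium and the junction were below it. By TMM-scaled level it was the lowest of the 4 heart libraries for 28 of 51 members, where it was so for 24.2% of all expressed genes, and the highest for 0. The ventricle was the highest for 27, the atrium for 14 and the junction for 10. The shares of all expressed genes highest in each heart library were not computed, so these counts have no background. Pairs of libraries were compared by calling a gene that differed at least 1.5-fold with a 95% counting interval that excluded no difference. Over the 6 heart pairs this called members 10 times in 306, or 3.27%, where all expressed genes were called in 21.1% of cases.

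Of these calls, 4 were lower in the node than in the ventricle (background 11.9%): RPL22L1 by 1.76-fold (interval 1.72 to 1.81), RPL27A by 1.70-fold (1.68 to 1.73), RPS27A by 1.54-fold and RPL39 by 1.53-fold. Another 2 were lower in the node than in the atrium (background 8.47%), RPL27A by 1.67-fold (1.65 to 1.69) and RPLP1 by 1.54-fold. RPS15A was lower in the ventricle, at 714 CPM, than in the atrium, at 1098 CPM, or the junction, at 1160.2 CPM. These were 1 of 51 members higher in the atrium than in the ventricle (background 12.0%) and 1 lower in the ventricle than in the junction (background 15.2%). The other 2 calls were of RPS27A, which was lower in the junction than in the atrium (background 7.88%) or the ventricle (background 12.5%). Between the node and the junction 0 members were called, where 16.4% of all expressed genes were.

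The median ratio of the node over the ventricle was -0.22 for members and -0.03 for all expressed genes, and over the atrium -0.21 and -0.01. The sum of epicardial markers was 186 CPM in the node, 29.5 CPM in the atrium, 39.8 CPM in the ventricle and 236 CPM in the junction. The sum of endoderm and liver markers was 1525 CPM in the node, 650.4 CPM in the atrium, 122 CPM in the ventricle and 448 CPM in the junction, most of it APOA1. Whether such cells account for these sums, and their part in the node's lower values, was not tested.

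Within the mesoderm, the left library was the low end and the posterior library the high end. The left library was the lowest of the 4 for 43 of 51 members, where it was so for 28.9% of all expressed genes. The posterior library was the highest for 27 members, where it was so for 27.7% of all expressed genes. The anterior library was the highest for 22 members, and the share of all expressed genes was not computed for it. Over the 6 mesoderm pairs members were called 18 times in 306, or 5.88%, close to the 5.45% of all expressed genes, and 11 of the 18 fell in the pair of left and posterior mesoderm.

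In the left mesoderm 10 members were lower than in the posterior mesoderm, or 19.6%, where 3.20% of all expressed genes were. RPL27A was at 2653 CPM in the left and 5177 CPM in the posterior library, a 1.95-fold difference (interval 1.93 to 1.98). RPL23 was lower by 1.81-fold (1.79 to 1.84) and RPS20 by 1.79-fold (1.77 to 1.81), and RPL39, RPL35A, RPS13, RPL22L1, RPS29, RPL38 and RPLP1 were lower by 1.60-fold to 1.78-fold. The median ratio of left over posterior was -0.41 for members and -0.02 for all expressed genes. Under total counts 6 members were lower, a setting for which the share of all expressed genes was not computed. As shares of the ribosomal protein pool 0 were lower. That measure divides by the members' own sum and so removes a difference that they share.

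The other mesoderm pairs had few calls. RPL36 and RPL9 were lower in the pacemaker field than in the anterior mesoderm, by 1.52-fold and 1.55-fold (2 of 51 members, background 1.91%). RPL38 was higher in the anterior mesoderm, at 1875 CPM, than in the left, at 1097 CPM (background 2.24%). RPL27A was lower than in the posterior mesoderm in the pacemaker field, by 1.52-fold (background 1.58%), and in the anterior mesoderm, by 1.65-fold (background 3.32%). Between the pacemaker field and the left mesoderm 0 members were called, where 2.58% of all expressed genes were. RPS27A was called in 3 mesoderm pairs, described next.

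RPS27A, made as a fusion of ubiquitin with a small subunit protein, was the most uneven member. RPS27A (chromosome 3, 12614 to 15056, plus strand) held 2117 CPM in node, 2882 in atrium, 3253 in ventricle and 1515 in junction. Its mesoderm levels were 2153 CPM in pacemaker field, 1599.7 in anterior, 1771 in left and 886 in posterior mesoderm. The ventricle was highest and the posterior mesoderm lowest, and the order was not that of the classes.

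RPS27A was the 1 member of 51 that was lowest of the mesoderm in the posterior library. The pacemaker field was 2.43-fold above it (interval 2.38 to 2.48, background 2.91%), and the anterior mesoderm 1.81-fold (1.76 to 1.85, background 3.59%). The left mesoderm was above it as well, with an interval of 1.96-fold to 2.04-fold (background 5.25%). In the heart the ventricle was 2.15-fold (2.11 to 2.19) and the atrium 1.90-fold (1.87 to 1.94) above the junction. Its share of the pool ran from 0.785% in the posterior mesoderm to 2.81% in the ventricle. The polyubiquitin gene UBB, whose coding sequence repeats ubiquitin, ranged from 1265 to 1756 CPM. Short reads from ubiquitin could be split between these genes, so the level of RPS27A is uncertain.

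RPL22 and its paralog RPL22L1 allow a ratio of counts within a library, free of scaling. RPL22 binds RNA and in mouse holds down the level of RPL22L1. The ratio of RPL22L1 (chromosome 9, 21267171 to 21269116, plus strand) to RPL22 (chromosome 21, 599484 to 601784, plus strand) was 0.820 in the node, 1.04 in the atrium, 1.05 in the ventricle and 0.955 in the junction. It was 1.16 in the pacemaker field, 1.03 in the anterior, 1.02 on the left and 1.25 in the posterior mesoderm. The counting intervals of the node (0.800 to 0.839) and the posterior mesoderm (1.23 to 1.28) lay apart from all other libraries. The same held for the junction (0.932 to 0.978) and the pacemaker field (1.13 to 1.18). Those of the atrium, ventricle, anterior and left mesoderm overlapped one another. As the lengths of the 2 transcripts were not used, the ratio does not say which of the genes was the more abundant.

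**Figure D4:**
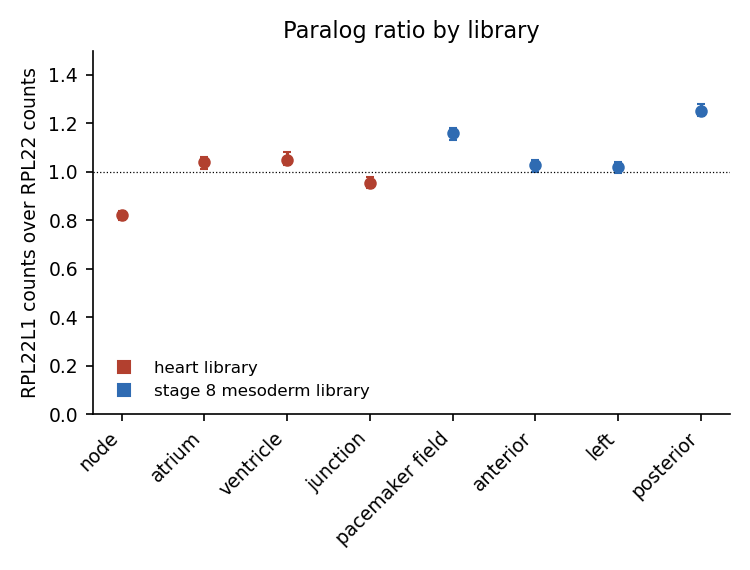
Points give RPL22L1 counts over RPL22 counts in each library, bars the exact 95% interval for counting error, with heart libraries in red and mesoderm libraries in blue. The ratio is lowest in the node, at 0.820, and highest in the posterior mesoderm, at 1.25.

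RPL3L, the form of RPL3 known in mammals from heart and skeletal muscle, was the sole member under 5 CPM everywhere. It held 1.01 CPM in node, 3.02 in atrium, 2.06 in ventricle and 2.95 in junction. In the mesoderm it held 0.595 CPM in the pacemaker field, 0.524 in the anterior, 0.868 on the left and 0.858 in the posterior library. All 4 heart values were above all 4 mesoderm values on the TMM scale, and 111 counts in the heart against 42 in the mesoderm gave a ratio of 3.16 (exact interval 2.20 to 4.62). That interval pools the 4 regions of each class and covers counting error only, not the spread between regions. The node held 14 counts and the left mesoderm 15, so the order of these libraries rests on the scaling. RPL3 itself is not analysed here, so no ratio of the pair is given. As shares of the pool the node and the left mesoderm were level, at 0.00104% each.

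Some members varied together in their share of the pool. These correlations are over 8 libraries that share the same totals and tissue classes, and are given as a description. The pairs named were picked after the values were seen, from all pairs of the 51 expressed members. Among so many pairs over so few libraries, extreme values arise by selection. Genes with their highest shares in the posterior mesoderm and the atrium went together. These were RPL23 with RPL27A (r = 0.91), RPL23 with RPL35A (r = 0.91) and RPL27A with RPL35A (r = 0.88). The ventricle came next, though for RPL35A it was about level with the junction, at 3.44% and 3.41%. Another set followed the heart, with RPS16 and RPS29 at r = 0.92 and RPLP1 and RPS29 at r = 0.91. RPS29 ran opposite to RPSA (r = -0.96) and RPS25 (r = -0.95), the lowest values of all pairs. Pairs across the sets had r from 0.11 (RPL27A and RPS16) to 0.60 (RPL35A and RPLP1), so the sets were not separate.

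The members lie on 24 chromosomes, with 3 of them (RPL37, RPS23 and RPS6) on the Z chromosome. The 25 expressed members on chromosomes 1 to 5 and Z had a median ratio of 0.06 and the 26 on the others a median of 0.14, beside 0.03 and 0.02 for all expressed genes there. The 5 members that span under 1500 bases (RPS27L, RPS29, RPS28, RPLP1 and RPS15) had a median ratio of 0.52, where the other 46 had 0.11. All 988 expressed genes that span under 1500 bases had a median of 0.15. Across members the Spearman correlation of span and ratio was -0.39 (51 genes), and across all expressed genes it was 0.02. These are correlations across genes, which are not independent.

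Ribosomal protein genes often carry small nucleolar RNAs, guides of ribosomal RNA modification, in their introns. Here 16 members overlapped 21 such listed RNAs. Of these 21, 20 stayed at or under 10 CPM in every library, and the exception, SNORA3 within RPL27A, ranged from 0 CPM in the ventricle to 13.1 CPM in the pacemaker field. Libraries of polyadenylated RNA capture these RNAs poorly. Apart from RPS28 and RPS15, a listed gene on the opposite strand overlapped RPL38, RPS13 and the RPS27L row, where it held at most 7.04% of the member's count.

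The factors that build ribosomes differed from the ribosomal proteins themselves. Of 31 expressed ribosome biogenesis genes, 1 was higher in all heart libraries, SBDS, and 19 were lower, beside the backgrounds of 25.6% each given above. The median ratio was -0.51, beside 0.02 for all expressed genes. It was -0.83 with total counts (all expressed genes -0.29) and -0.64 with the pool as scale (all expressed genes -0.11). Both of these scales move all genes down, so the sign could not turn. MYCN, a transcription factor that drives ribosome production, had means of 32.6 CPM in the heart and 118 CPM in the mesoderm. HEATR1 and UTP20, factors of early small subunit assembly, were lower in the heart by 2.17-fold and 2.06-fold, and POLR1B, a large subunit of RNA polymerase I, by 2.07-fold. Proliferation genes differed in the same direction, with 0 of 7 higher and 5 lower in the heart and a median of -0.52. MKI67 and CDK1, markers of cycling cells, were lower by 2.09-fold and 1.54-fold.

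Of 55 expressed mitochondrial ribosomal protein genes, 11 were higher in the heart, a smaller share than the 25.6% of all expressed genes, and 0 were lower, where 25.6% of all expressed genes were. Their median was 0.24 on the TMM scale, beside 0.02 for all expressed genes. Under total counts the median was -0.08, beside -0.29 for all expressed genes. There 6 were higher (background 15.8%) and 7 lower (background 39.7%). MRPL2, MRPL15, MRPS14 and MRPS16 had heart means 1.85-fold, 1.83-fold, 1.81-fold and 1.74-fold above the mesoderm means.

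Of 14 other expressed messengers with a TOP motif, 2 were higher (VIM and EEF1D) and 2 lower (NACA and NAP1L1), with a median of -0.04. That is 28.6% lying apart, beside 51.3% of all expressed genes. The 5th and 95th percentiles were -0.68 and 1.37, against -0.23 and 0.58 for the ribosomal proteins. With 14 genes these outer values rest on few genes, VIM (3.24) and NACA (-0.94) among them. The 25th and 75th percentiles were -0.14 and 0.10, against -0.03 and 0.25, so the middle of the list was not wider. EEF1A1, the main elongation factor, had means of 5242 CPM in the heart and 5444 CPM in the mesoderm. VIM, the intermediate filament vimentin, is also a gene of connective and endothelial cells and differed 9.56-fold. Of 17 translation initiation factors 0 were higher and 1 was lower, EIF3A by 1.13-fold, with a median of -0.10, and 5.88% thus lay apart. Under total counts 8 of the 14 TOP messengers and 9 of the 17 initiation factors were lower, where 39.7% of all expressed genes were.

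Of 11 mTOR pathway genes 3 were higher and 2 lower, with a median of 0.03. The 45.5% lying apart was near the 51.3% of all expressed genes, so the list did not stand out, and single genes are given as values. RRAGD, a GTPase that brings mTOR to the lysosome, was at 23.5 CPM in the heart and 6.01 CPM in the mesoderm, MLST8 and RHEB were higher by 1.66-fold and 1.36-fold, and TSC1, a brake on mTOR, was lower by 1.65-fold. LARP1, which binds TOP messengers, was lower by 1.30-fold.

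**Figure D5:**
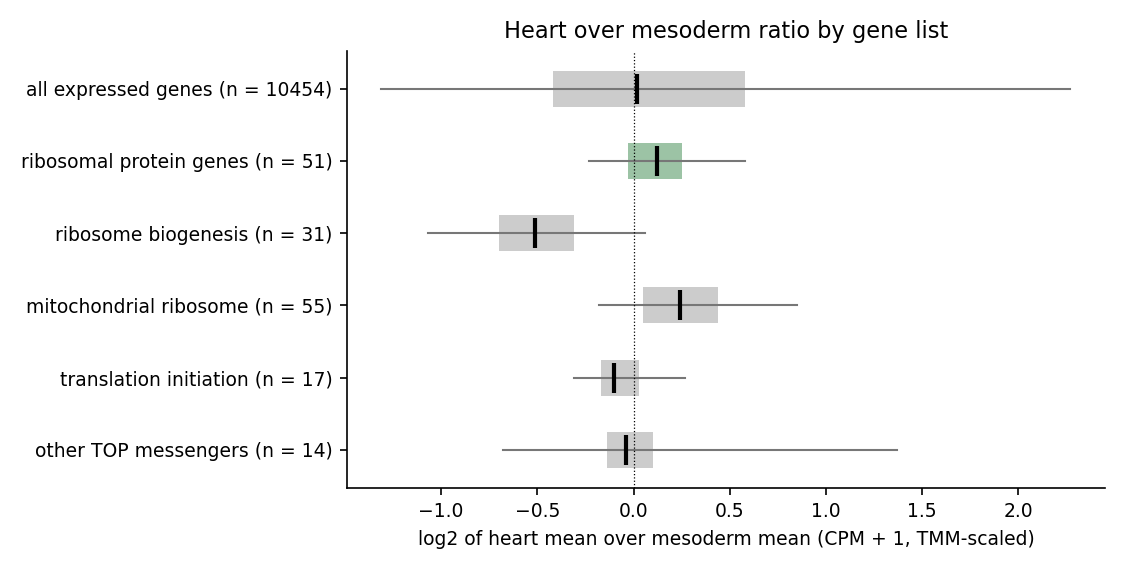
For each gene list the black mark is the median heart over mesoderm log2 ratio (TMM scale), the box runs from the 25th to the 75th and the line from the 5th to the 95th percentile of genes. Ribosomal protein genes (median 0.12, or -0.19 under total counts) are narrower than all expressed genes (median 0.02, or -0.29 under total counts). Ribosome biogenesis lies lower at -0.51, and mitochondrial ribosomal proteins lie at 0.24, or -0.08 under total counts.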

How the data were processed

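Polyadenylated RNA of pooled chick embryo tissue was extracted with Trizol and sequenced on an Illumina HiSeq instrument, per the labels' protocols. The submitters' processing notes name Bowtie and TopHat, without versions. Genome build, annotation, counter and strand setting are not given in the sources used here, and coordinates are those of the deposited tables. Per the file headers, the authors deposited raw counts per gene for 7 libraries and CPM, counts scaled to the library total, for 8. Each deposited count column stood in the table of another library and was assigned by its header; rescaled, it gave the CPM of the library named to within 5.1e-11. Counts of the posterior mesoderm were worked back from the CPM the authors deposited, with 100% of values whole within 0.01 of a read. A second, identical copy of that CPM column was not counted again, and 0 columns went unused.

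Counts were scaled with TMM (edgeR 4.0.16, R 4.3.3), with factors from 0.848 to 1.18. Entry names were given their gene symbol. Names were checked against a RefSeq gene table (GRCg7b), used for names and neighbouring genes only: 52 of 52 matched a name, and 51 shared at least 2 of the 10 neighbours on each side. RL39, RL26 and RS4 are called RPL39, RPL26 and RPS4 here, where that table lists RPL39L, RPL26L1 and RPS4Y1. RSSA is called RPSA here, where that table lists RPSAP58, with RPSA as a synonym. Expressed genes reached 5 CPM in at least 1 library compared. Ratios used CPM + 1, which understates differences of low genes. Intervals are exact (Clopper-Pearson, 95%) and cover counting error only, and reads copied by PCR are not independent molecules. The calls were tested on simulated data. Alternatives were total counts, DESeq2 1.42.0 size factors, TMM without the members or without globin and mitochondrial genes, other pseudocounts, filters, folds and name rules, each library left out, and the pool as scale. scipy 1.17.1, pandas 2.3.3 and matplotlib 3.10.9 were used.

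The members, and 14 gene lists of which 190 of 282 entries were found, were chosen with earlier results of these data known. Genes named are the 6 members with the highest and the 6 with the lowest ratio at 10 CPM or more, the stalk genes and RPSA, paralogs, up to 3 called members per direction in each library pair, and of each list up to 4 genes lying apart, or otherwise its 2 highest expressed. All other members, and SBDS, LARP1, CDK1 and EEF1A1, were named after their values were seen. Levels per transcript length, promoter motifs, protein lengths and other paralog ratios were not computed here. Some genes, 1 expressed member among them, entered all counts and sums but their own values are not reported here.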

Additional observations from a re-analysis of the deposited data

How the results depend on the processing

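In all, 253 alternative values were computed, of which 200 stayed on the same side and within the spread allowed. This tally does not measure robustness, because several settings could hardly move a value. Pseudocounts and filters are small beside the levels of most members, and DESeq2 size factors lay close to those of TMM. Total counts against TMM was the choice that moved most: the members' median ratio was -0.19 (0.02 with the pool as scale), 1 member lay apart as higher and 17 as lower (10 lower with the pool as scale). Under total counts RPL29 (0.12), RPS10 (0.05), RPS16 (0.35) and RPS28 (0.24) kept their direction but overlapped. With each library left out in turn, 5 to 9 members lay apart as higher and 0 to 5 as lower, and the median was 0.04 to 0.20. As pool shares, 7 to 12 were higher and 10 to 12 lower. With fewer libraries the criterion is met more easily, and the shares of all expressed genes were not computed for these settings. DESeq2 size factors and the other TMM settings left these member results on their side.

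Without globin and mitochondrial genes in the total, the summed share was 11.1% (node), 11.8% (atrium), 12.1% (ventricle), 11.5% (junction), 12.2% (pacemaker field), 13.4% (anterior), 11.3% (left) and 13.8% (posterior). Without paralogs it was 9.37%, 9.27%, 10.1%, 8.87%, 10.7%, 11.1%, 9.67% and 12.0% in the same order. Calls in heart pairs, 10 in the report, numbered 4 without entry names and paralogs and 1 at 2-fold. Calls in mesoderm pairs, 18 in the report, numbered 11 under total counts, 5 with the pool as scale, 11 without entry names and paralogs and 1 at 2-fold. For left below posterior, 10 in the report, these were 6, 0, 6 and 0. Leaving out entry names and paralogs leaves fewer members to call, and a higher fold calls fewer of any genes. The pool as scale removes a difference that the members share. Shares of all expressed genes were not computed for these settings, so these counts are not read as a change of the members.

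Of the lists, ribosome biogenesis had 0 higher under total counts or the pool. Mitochondrial ribosome had 6 higher and 7 lower under total counts and 3 lower with the pool. Other TOP messengers had 1 higher under either, with 8 lower under total counts and 4 with the pool. Translation initiation had 9 lower under total counts, 3 with the pool, and 1 higher and 0 lower with DESeq2 size factors. mTOR regulation had 0 lower with the pool. Over all expressed genes 15.8% were higher and 39.7% lower under total counts, and 18.9% and 26.9% with the pool. For DESeq2 size factors these shares were not computed. The cause of these shifts was not tested.

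No paired analysis was possible because each region is 1 library and no test was made. The lack of replicates, not depth, limits the comparisons: 1 read was worth 0.0582 to 0.0975 CPM, and only RPL3L lay near that level.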

Other observations

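Markers of other cells were read on the same scale, as heart against mesoderm libraries. Over all expressed genes, 25.6% were higher and 25.6% lower, or 51.3% lying apart. Of 7 expressed erythroid genes 6 were higher in all heart libraries and 1, TAL1, was lower. HBBA, a globin, had means of 7945 CPM in the heart and 7.95 CPM in the mesoderm. Of 9 endothelial genes 5 were higher and 0 lower, with TIE1, a receptor of vessel lining cells, at 41.2 CPM and 7.99 CPM. Of 6 endoderm and liver genes 0 were higher and 3 lower, with FGB, a chain of fibrinogen, at 3.79 CPM and 155 CPM. Of 5 epicardial genes 0 were higher and 1, UPK3B, was lower. Of 8 lateral plate genes 2 were higher (TBX5 and HAND2) and 2 lower (PRRX1 and GATA6). The share lying apart was 55.6% for the endothelial list and 50.0% for the endoderm and liver and the lateral plate lists. These shares were near the 51.3% of all expressed genes, so by this measure, which takes both directions together, these lists did not stand out. By direction the endothelial and the endoderm and liver lists were one-sided. Their median ratios were 1.66 and -2.75, and that of the lateral plate list was 0.20, beside 0.02 for all expressed genes. Of 2 genes of the p53 response, MDM4 and CCNG1, 0 lay apart, and 0 of the 3 neural genes found reached 5 CPM.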
